A study of Mus musculus with 24 samples.

Results

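Mitochondrial ribosomal protein genes were taken as the rows of the count table whose symbol is Mrpl or Mrps, a number and at most 1 further letter. The rule used names only and found 77 of the 21878 genes in the table, 48 of them Mrpl genes (large subunit by name) and 29 Mrps genes (small subunit by name). RNA was sequenced from the hearts of ovariectomised mice 3 weeks after a myocardial infarction, and every group carried both operations and an AAV9 vector, an adeno-associated virus used to deliver genes to the heart. The groups were the empty vector without swimming (6 libraries, called empty-vector controls here), the empty vector with swimming training before the infarction (6), the miR-21 overexpression vector without swimming (6, miR-21 controls) and the miR-21 vector with swimming (5). Neither the age of the mice nor the promoter of the vector is given in the sources used here, and expression of miR-21 itself was not analysed here, since 0 rows of the count table carry the name of its precursor gene. Whether each library came from its own mouse is not stated in the labels. The p-values therefore cover only the spread between these samples, which may be technical.

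Mitochondria carry their own ribosome, which translates the few proteins encoded in mitochondrial DNA, all of them core subunits of the respiratory chain and ATP synthase. Its proteins are encoded in the nucleus, made on cytosolic ribosomes and imported. Part of them descend from bacterial ribosomal proteins and part were added in the mitochondrial lineage. The heart depends heavily on oxidative phosphorylation, and inherited defects in several of these proteins cause cardiomyopathy. The symbols do not always match the structure: the products of Mrps18a and Mrps30 sit in the large subunit, and Mrps36 is now known as a subunit of the 2-oxoglutarate dehydrogenase complex. Of the 77 genes, 48 were listed as bacterial-type and 28 as mitochondrial-type, and Mrps36 was in neither list.

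Mrps18c and Mrps15 passed the threshold with all libraries in a comparison described further on. Mrpl39 passed only in some alternative fits, as did other genes that are not shown. Mrpl46 and Mrps11 share their start region. The promoters of these 5 genes are shown. Each runs from 250 bases before to 50 bases from the transcription start, 5′ to 3′ on the strand of the gene, and comes from RefSeq on GRCm38.p6, an earlier build than the GRCm39 named in the submitters' processing notes. Capitals mark matches on either strand to 3 motifs: CCGGAAGT (ETS family, which includes NRF2), GCGCATGCG (NRF1, whose matches on opposite strands overlap each other) and AAGATGGCG (YY1). The windows lie at chr5:100798509-100798808 on the plus strand (Mrps18c), chr4:126046678-126046977 on the plus strand (Mrps15), chr16:84735195-84735494 on the minus strand (Mrpl39), chr7:78783040-78783339 on the minus strand (Mrpl46) and chr7:78782881-78783180 on the plus strand (Mrps11).
Mrps18c: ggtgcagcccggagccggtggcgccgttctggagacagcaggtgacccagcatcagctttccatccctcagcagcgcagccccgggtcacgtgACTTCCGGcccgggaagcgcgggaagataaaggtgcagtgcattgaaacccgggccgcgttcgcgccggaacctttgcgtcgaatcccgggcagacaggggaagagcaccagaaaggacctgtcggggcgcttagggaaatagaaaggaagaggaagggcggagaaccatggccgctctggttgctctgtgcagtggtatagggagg
Mrps15: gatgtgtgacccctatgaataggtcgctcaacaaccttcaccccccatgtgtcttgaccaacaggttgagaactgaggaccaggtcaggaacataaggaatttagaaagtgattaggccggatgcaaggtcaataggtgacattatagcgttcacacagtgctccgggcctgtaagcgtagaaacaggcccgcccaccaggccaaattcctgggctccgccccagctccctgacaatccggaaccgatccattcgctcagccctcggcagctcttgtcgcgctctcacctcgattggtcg
Mrpl39: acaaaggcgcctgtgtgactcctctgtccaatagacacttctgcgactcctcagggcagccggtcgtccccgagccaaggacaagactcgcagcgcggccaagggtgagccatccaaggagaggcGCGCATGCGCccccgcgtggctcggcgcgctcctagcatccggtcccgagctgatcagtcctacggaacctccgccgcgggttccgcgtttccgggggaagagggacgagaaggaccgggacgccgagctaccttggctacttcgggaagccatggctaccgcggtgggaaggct
Mrpl46: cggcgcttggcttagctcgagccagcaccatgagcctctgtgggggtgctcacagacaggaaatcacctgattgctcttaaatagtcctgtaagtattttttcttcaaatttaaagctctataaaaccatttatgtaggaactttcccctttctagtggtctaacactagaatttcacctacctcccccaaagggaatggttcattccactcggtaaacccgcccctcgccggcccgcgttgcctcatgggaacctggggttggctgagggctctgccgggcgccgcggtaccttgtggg
Mrps11: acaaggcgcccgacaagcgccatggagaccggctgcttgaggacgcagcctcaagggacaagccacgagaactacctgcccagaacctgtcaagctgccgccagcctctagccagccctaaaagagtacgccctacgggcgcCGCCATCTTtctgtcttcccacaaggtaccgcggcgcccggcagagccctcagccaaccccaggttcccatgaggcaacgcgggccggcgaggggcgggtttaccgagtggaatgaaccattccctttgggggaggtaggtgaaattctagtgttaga

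Mrps18c held the ETS motif, on the reverse strand, Mrpl39 the NRF1 motif on both strands and Mrps11 the YY1 motif on the reverse strand, while the Mrps15 and Mrpl46 windows held none of these letters. A RefSeq promoter was matched for 68 of the 77 genes, on 16 chromosomes. The ETS motif was found in 12 of the 68 (17.6%), against 8.61% of the 10726 tested genes with a promoter and 4.31% of all 27025 genes of the promoter table. The NRF1 motif was found in 7 (10.3%, against 3.91% and 1.95%) and the YY1 motif in 8 (11.8%, against 3.33% and 1.64%). At least 1 of the 3 stood in 26 (38.2%, against 14.9% and 7.48%). The window overlapped that of a gene on the opposite strand in 24 of the 68 (35.3%, against 17.8% of tested genes). Among those partners were Helq, a DNA helicase gene, for Mrps18c, the mitochondrial seryl-tRNA synthetase gene Sars2 for Mrps12, the mitochondrial DNA helicase gene Twnk for Mrpl43, the respiratory complex I gene Ndufb5 for Mrpl47, and Mrps11 and Mrpl46 for each other. A match of letters is a description of the sequence and not a bound site.

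All 77 genes passed the filter on low counts, among 13501 genes tested. Libraries held 12744241 to 14657630 counts, of which the 77 genes took 0.377% to 0.537%. The heart label was met by cardiomyocyte markers: all 7 on the list were tested, and together they made up 42910 to 91850 CPM (counts scaled to library size, with TMM factors) across the libraries.

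Levels per transcript length (the authors' FPKM, fragments scaled to transcript length and library size) spanned 77.1-fold among the 77 genes. The median was 35.1 FPKM and 42 genes lay between 10 and 50 FPKM. Mrpl42, a large subunit protein of the mitochondrial type, stood highest at 363 ± 40.7 FPKM (SD over 23 libraries), followed by Mrpl12, a protein of the stalk that recruits translation factors, at 216 ± 25.3, and Mrps21, a small subunit protein, at 169 ± 15.5. Mrps10 (4.71 ± 0.367), Mrps25 (5.64 ± 0.568) and Mrpl17 (6.04 ± 0.517), which encode proteins of the small, small and large subunit, stood lowest. The libraries of these 6 genes did not bridge the gap between the ends: the lowest Mrps21 value was 138 FPKM and the highest Mrpl17 value 7.15 FPKM. The medians of Mrpl and Mrps genes were 36.2 and 30.8 FPKM, and those of bacterial-type and mitochondrial-type genes were 36.2 and 33.6 FPKM.

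**Figure D1:**
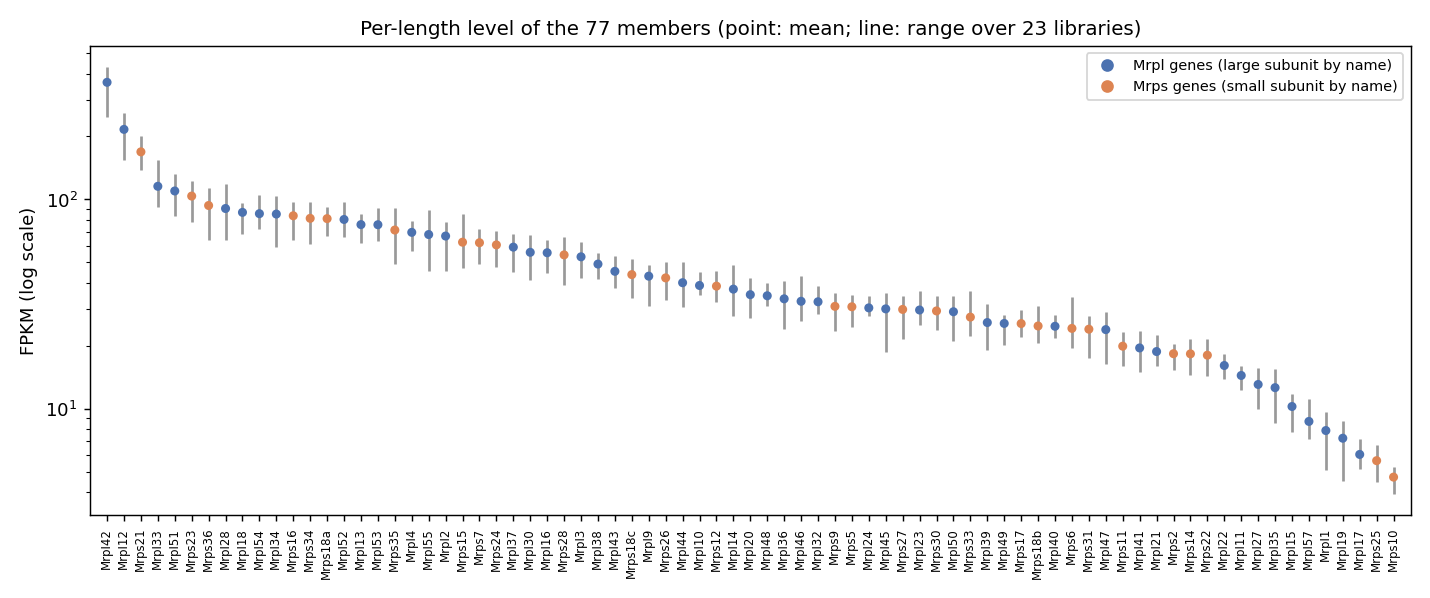
Per-length level of the 77 genes in order of their mean, in FPKM on a log scale. Points are means and lines the range over 23 libraries, in blue for Mrpl and orange for Mrps genes. Mrpl42 stands highest at 363 FPKM and Mrps10 lowest at 4.71 FPKM.

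Most of the 77 genes rose and fell together from library to library, and the largest movements lay within groups. After centring the log2 CPM of each gene on its mean, the mean of the 77 genes ran from -0.50 in replicate 2 of the miR-21 swimming group to 0.29 in replicate 3 of the miR-21 controls. Replicate 2 of the miR-21 swimming group held the lowest of all 23 values for 57 of the 77 genes, replicate 5 of the empty-vector controls for 9 and replicate 2 of that group for 3. Replicate 3 of the miR-21 controls held the highest value for 54. The 3 low libraries were also the 3 with the highest adipocyte scores, at 3.79, 3.79 and 3.92 (mean centred log2 CPM of the 4 tested of 8 adipocyte genes), against at most 1.02 in the other 20. In the same order, their cardiomyocyte scores were the 3 lowest, at -0.70, -0.49 and -0.27. So were their scores for nuclear-encoded respiratory chain genes, at -0.71, -0.46 and -0.27. Their macrophage scores were the 3 highest, at 1.66, 1.19 and 1.62. Fibroblast scores were 1.34, 1.37 and 1.37 there, beside 1.34 in empty-vector control replicate 4. The empty-vector swimming libraries were the closest together, with means of the 77 genes from -0.04 to 0.05. In bulk tissue, fewer cells of a type and less RNA per cell cannot be told apart.

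Summed adipocyte markers ran from 44.7 to 246 CPM in the empty-vector controls, 37.1 to 46.2 in the empty-vector swimming group, 36.2 to 49.1 in the miR-21 controls and 33.02 to 235 in the miR-21 swimming group. Among them Lep and Ucp1 were at 0 in all libraries of the empty-vector swimming group, and Ucp1 in all of the miR-21 swimming group. The 6 mesothelial markers, all tested, summed to 8.26 to 43.0, 7.88 to 13.8, 5.06 to 26.1 and 5.19 to 188 CPM in the same order, and cardiomyocyte markers to 53050 to 77250, 65660 to 78070, 77860 to 81790 and 42910 to 91850 CPM. Fibroblast markers (7 of 7 tested) summed to 1648 to 6810, 1425 to 2906, 1093 to 1788 and 1053 to 4544 CPM, macrophage markers (7 of 7) to 453.9 to 2254, 377.7 to 739, 310.2 to 929.4 and 308.3 to 2123, and endothelial markers (6 of 6) to 993 to 1241, 1178 to 1530, 1043 to 1189 and 987 to 1188, with none at 0 throughout a group. Of the 6 endothelial markers, 3 were called higher and 0 lower for swimming with the empty vector, where Mrps15 was called. Over all genes tested, 4.18% were called higher and 3.28% lower there. For miR-21 with swimming, where Mrps18c was called, 4 endothelial markers were lower and 0 higher, against 2.71% and 1.87% of all genes. For miR-21 without swimming, 1 of 7 fibroblast markers was called lower, with 7 of 7 lower at an unadjusted p under 0.05, as were 5 of 7 macrophage markers, of which 0 were called. Over all genes, 1.37% were called lower there and 16% were lower at that unadjusted p. The part of these cell types in the results on the 77 genes was not tested, and each comparison is therefore also given without the 3 libraries, which leaves 4, 6, 6 and 4 libraries and 13389 genes tested.

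**Figure D2:**
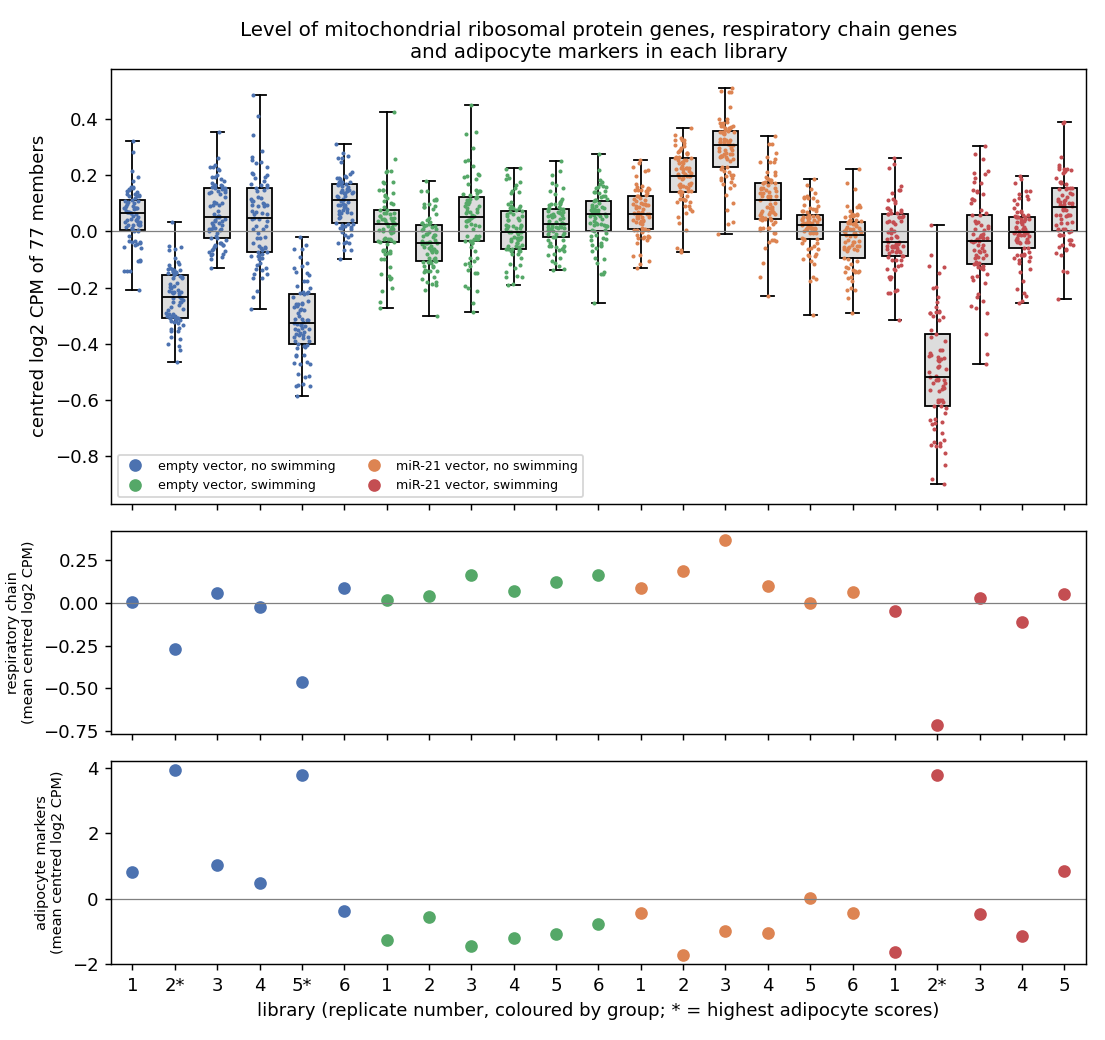
Top, centred log2 CPM of the 77 genes in each library (points are genes, boxes the quartiles, whiskers the range). Middle and bottom, the mean centred log2 CPM of the nuclear-encoded respiratory chain genes and of the adipocyte markers. The starred libraries, at -0.23, -0.32 and -0.50 for the mean of the 77 genes, have the highest adipocyte scores.

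The correlation of each gene with the mean of the other 76 describes how closely it followed the set. Its median was 0.854 (Pearson's r over 23 libraries, which share their group structure and the 3 libraries above) and 0.638 over the 20 others. With r above 0.8 there were 50 genes over 23 libraries and 8 over 20, so much of the likeness lay in those 3 libraries. Mrpl51, a large subunit protein, followed the others most closely (r = 0.965, and 0.883 over 20 libraries). Mrpl33 (r = 0.24), Mrpl52 (r = 0.37), both of the large subunit, and Mrps18c (r = 0.41) followed them least over 23 libraries. Over the 20 others their values were 0.248, 0.45 and 0.295, and the lowest were those of Mrps15 (-0.0108), Mrps30 (-0.0037) and Mrpl39 (0.0528). Mrpl33 stood at 54.4 CPM in replicate 2 of the miR-21 swimming group, above the 46.2, 52.6, 52.2 and 45.3 CPM of the other 4 libraries, where most of the 77 genes had their lowest value.

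**Figure D3:**
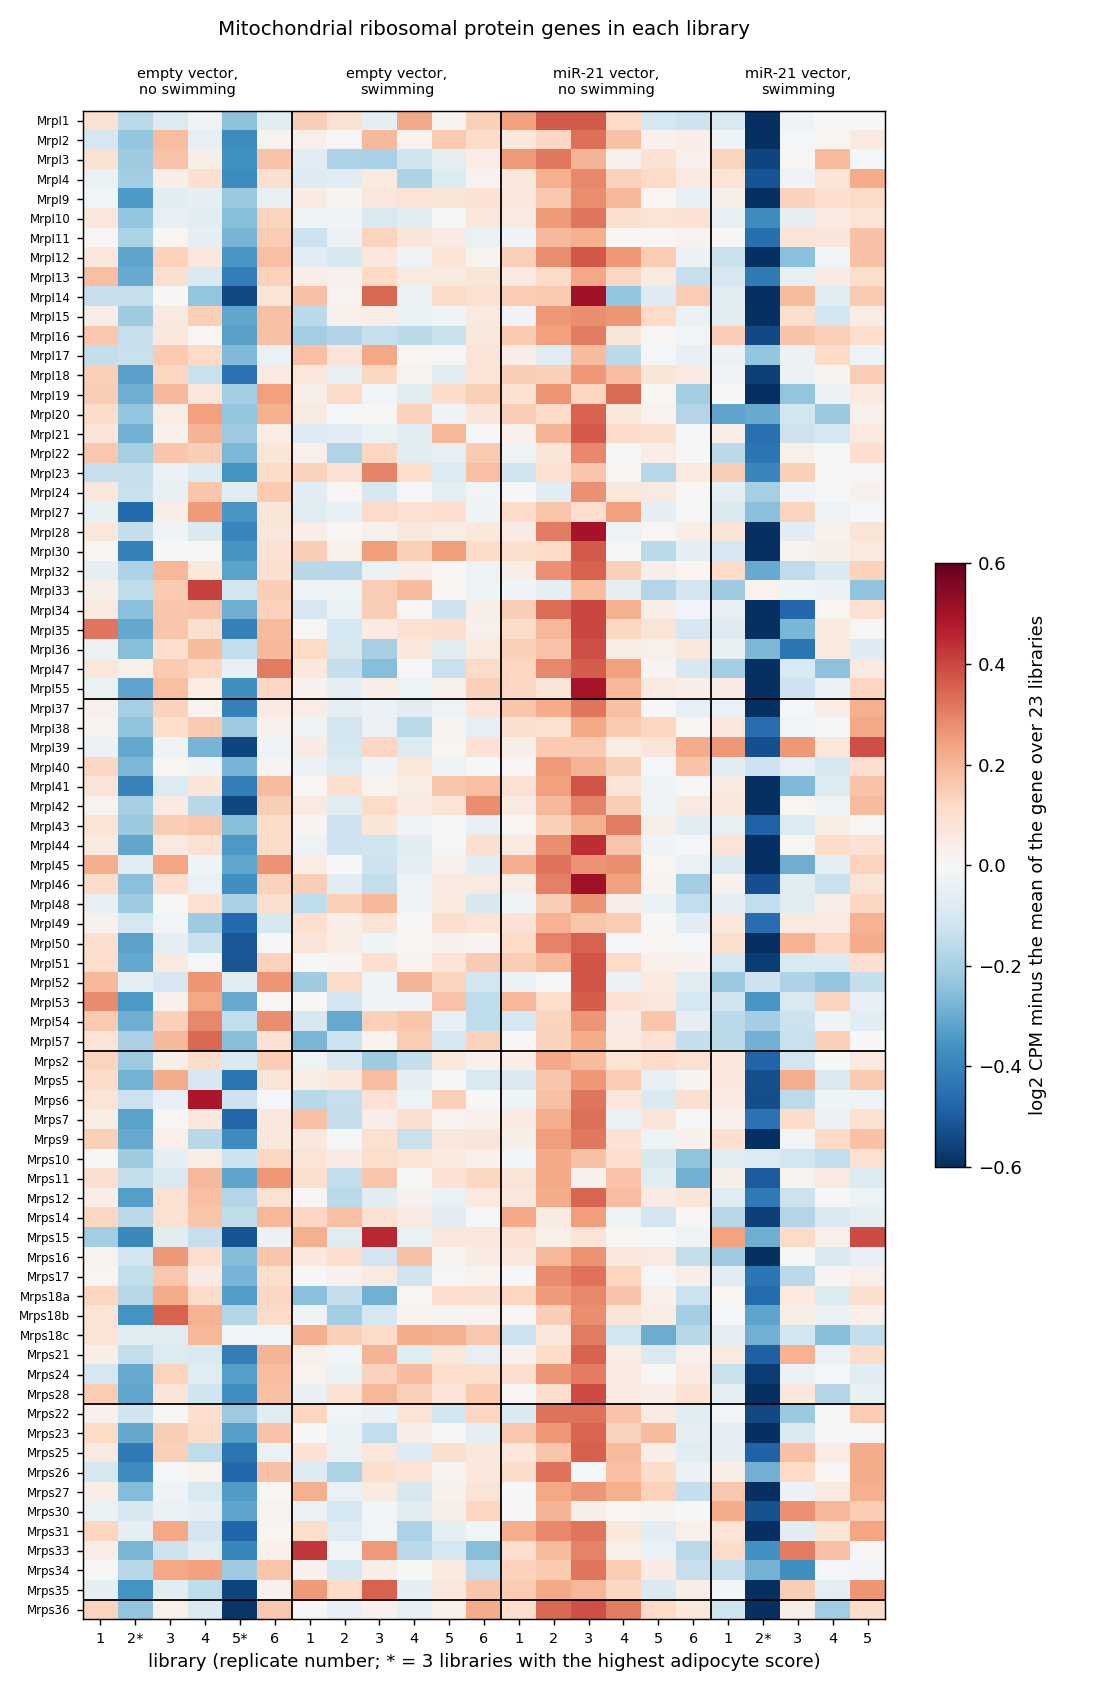
Centred log2 CPM of each of the 77 genes (rows) in each of the 23 libraries (columns, by group). Rows are grouped by name (Mrpl, then Mrps) and, within that, bacterial-type, mitochondrial-type and Mrps36. Replicate 2 of the miR-21 swimming group is blue in 76 of 77 rows and replicate 3 of the miR-21 controls red in 76.

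The first comparison asked what training before the infarction did in hearts with the empty vector. Mrps15, a small subunit protein of bacterial type, rose, and it was the only 1 of the 77 genes to pass an adjusted p of 0.05. Its lowest, median and highest values were 40.5, 51.6 and 56.7 CPM in the 6 empty-vector controls and 55.2, 61.1 and 79.7 CPM in the 6 swimming libraries. The groups overlapped at their ends, where 2 controls lay above the lowest swimming library and 1 of them also above the next. The log2 fold change was 0.34 ± 0.10 (SE, edgeR adjusted p = 0.0409), with 6 of 6 swimming libraries above the control mean. Over all genes tested, 4.18% were called higher and 3.28% lower, so 1 higher (1.3%) and 0 lower of 77 is a small share. At an unadjusted p under 0.05, 6 of the 77 were higher (7.79%) and 0 lower, against 11.6% and 11.7% of all genes. The median log2 fold change was 0.045, against -0.0048 over all genes, with 51 genes above 0. Over 33 alternative fits this median ran from -0.21 to 0.07, and 28 of them kept its sign.

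The next smallest p-values belonged to Mrps35, a small subunit protein of the mitochondrial type, at 0.34 ± 0.12 (adjusted p = 0.0955), Mrpl23, at the polypeptide exit tunnel, at 0.23 ± 0.09 (adjusted p = 0.116), and Mrpl49, a large subunit protein, at 0.20 ± 0.09 (adjusted p = 0.159). None of these passed. Exons of Mrpl49 overlap those of Syvn1 on the other strand, and the counter's use of strand is not given in the sources used here, so its counts are uncertain. The Mrps15 call did not hold for 13 of 33 alternatives. It was lost when 1 of 8 libraries was left out: empty-vector control replicates 1, 2, 4 and 5 (adjusted p of 0.0584, 0.0885, 0.0528 and 0.114) and empty-vector swimming replicates 1, 3, 5 and 6 (0.0823, 0.106, 0.0631 and 0.0549). The sample titles carry numbers of a lower and a higher series, and all empty-vector controls are in the lower one and all empty-vector swimming libraries in the higher one, so within the empty vector swimming and series cannot be told apart. A term for the series was estimable only from the miR-21 swimming libraries, which include the low replicate 2. With that term Mrps15 gave 0.15 (adjusted p = 0.76). With marker scores of adipocytes and mesothelium as covariates Mrps15 gave 0.09 (adjusted p = 0.549).

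Leaving out the 3 libraries changed the calls under the empty vector. Mrps15 then gave 0.24 ± 0.08 (adjusted p = 0.0689), and 4 other genes fell with swimming: Mrpl16, near the peptidyl transferase centre, at -0.23 ± 0.06 (adjusted p = 0.0218), Mrpl3, at -0.21 ± 0.06 (0.0309), Mrpl54, at -0.26 ± 0.08 (0.0367), and Mrps18b, at -0.24 ± 0.08 (0.0437). Mrpl16 stood at 63.3 to 71.0 CPM in the 4 remaining controls and at 54.6 to 65.8 CPM in the 6 swimming libraries, so that 1 swimming library reached into the control range. In that fit, 6.06% of all genes were called higher and 5.55% lower, and of the 77 genes 0 were higher and 4 lower (5.19%). The median of the 77 genes became -0.06. Leaving out only empty-vector control replicate 5 gave a median of -0.0062 and 0 calls, leaving out only replicate 2 gave 0.0075 and 0 calls, and leaving out only miR-21 swimming replicate 2 gave 6 higher calls (Mrpl9, Mrpl23, Mrpl30, Mrpl49, Mrps15 and Mrps35), against 7.4% of all genes called higher in that fit.

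The second comparison asked what the miR-21 vector did without swimming. No gene of the 77 passed, with 0 higher and 0 lower, while 0.881% of all genes were called higher and 1.37% lower. The values leaned upward with all libraries: 73 of 77 log2 fold changes were above 0, with a median of 0.16 against -0.0048 over all genes. Over 33 alternative fits this median ran from -0.04 to 0.18, so the direction did not hold in all of them (32 kept it). At an unadjusted p under 0.05, 19 were higher (24.7%) and 0 lower, against 12.4% and 16% of all genes. These genes share the same libraries and are not independent of each other. The smallest p-values were those of Mrpl40 at 0.20 ± 0.07 (adjusted p = 0.0886), Mrpl10, a stalk protein, at 0.21 ± 0.08 (0.093), Mrpl39 at 0.31 ± 0.11 (0.0956) and Mrpl49 at 0.23 ± 0.09 (0.107). These 4 are of the large subunit, as are most of the 77 genes.

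The lowest, median and highest values of Mrpl39 were 52.2, 69.0 and 75.5 CPM in the empty-vector controls and 78.4, 83.0 and 89.5 CPM in the miR-21 controls. Mrps15, called in the first comparison, was not called here. It ran from 40.5 to 56.7 CPM in the empty-vector controls and from 56.9 to 61.85 CPM in the miR-21 controls, so it also lay higher without swimming. The nuclear-encoded respiratory chain genes had a median log2 fold change of 0.24 in the same comparison, with 0 of 80 tested called, and cytosolic ribosomal protein genes -0.12, with 0 of 83 called. Without the 3 libraries, 0 of the 77 genes were called in either direction, against 2.89% of all genes higher and 2.87% lower. The median of the 77 genes was then 0.048, with 55 above 0, and Mrpl39 gave 0.20 ± 0.07 (adjusted p = 0.0685). The respiratory chain median was 0.11 in that fit, with 76 of 80 genes above 0, 1 called higher and 0 lower. For cytosolic ribosomal protein genes it was -0.13, with 0 of 83 called. Leaving out miR-21 swimming replicate 2 alone, which belongs to neither group but enters the estimate of the spread, gave 16 higher calls and 0 lower, where 9.98% of all genes were called higher and 11.3% lower. Leaving out empty-vector control replicate 1 alone gave 1 higher call, Mrpl40, against 1.56% of all genes. The 19 genes at an unadjusted p under 0.05 became 8 without empty-vector control replicate 2, 5 without replicate 5 of that group and 8 without miR-21 control replicate 3.

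The third comparison asked what the miR-21 vector did in swimming mice. Mrps18c, 1 of 3 mammalian paralogs of bacterial ribosomal protein S18 and the one placed at the bacterial position in the small subunit, fell, and it was the only gene of the 77 called. It stood at 25.3, 24.1, 23.6, 25.5, 25.3 and 24.4 CPM in the 6 empty-vector swimming libraries and at 21.02, 17.8, 20.1, 18.3 and 19.7 CPM in the 5 miR-21 swimming libraries. Every miR-21 library was below every empty-vector library, and replicate 2, low for most other genes, was the lowest by only a small margin here. The log2 fold change was -0.35 ± 0.08 (edgeR adjusted p = 0.0184). The call held under 33 of 33 alternatives, with values from -0.38 to -0.30 and adjusted p of at most 0.0464.

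In the groups without swimming, Mrps18c had lowest, median and highest values of 20.7, 21.6 and 25.1 CPM with the empty vector and 17.7, 20.02 and 27.1 CPM with the miR-21 vector. Those ranges overlapped, and the log2 fold change was -0.07 ± 0.08 (adjusted p = 0.591). With the empty vector, swimming gave 0.16 ± 0.08 (adjusted p = 0.23), and with the miR-21 vector -0.13 ± 0.08 (adjusted p = 0.405). The interaction was -0.28 ± 0.12 (adjusted p = 0.164), so a difference in the effect of miR-21 between swimming and non-swimming mice did not pass. Helq, whose promoter window overlaps that of Mrps18c on the other strand, gave 0.32 ± 0.13 (adjusted p = 0.157) in swimming mice.

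Both other paralogs were measured as well. Mrps18a was at 81.0 ± 8.03 FPKM, Mrps18c at 43.7 ± 5.51 and Mrps18b at 24.8 ± 2.31 (SD, 23 libraries). In swimming mice the miR-21 vector gave log2 fold changes of 0.0053 ± 0.11 for Mrps18a (adjusted p = 0.987) and -0.01 ± 0.10 for Mrps18b (adjusted p = 0.969). The differences between paralogs were not tested.

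Among all genes in the same comparison, 1.87% were called higher and 2.71% lower, against 0 higher and 1 lower of the 77 (1.3%). At an unadjusted p under 0.05, 0 were higher, against 9.88% of all genes, and 9 were lower (11.7%), near the 9.95% of all genes. The median was -0.10, against 0.02 over all genes, and 66 of 77 lay below 0. Over 33 alternative fits this median ran from -0.14 to 0.03, and 32 of them kept its sign. The 9 lower genes became 3 without miR-21 swimming replicate 2, 6 without replicate 1 and 19 without replicate 5 of that group, and 4 without empty-vector swimming replicate 4. The next smallest p-values were those of Mrps14, at -0.27 ± 0.09 (adjusted p = 0.0915), Mrps24, at -0.24 ± 0.10 (0.182), both of the small subunit, and Mrpl20, of the large subunit, at -0.22 ± 0.09 (0.185). Exons of Mrps24 overlap those of Urgcp on the same strand, so its counts are uncertain. In the same comparison 23 of 83 cytosolic ribosomal protein genes were called lower, with a median of -0.21, and 5 of 80 respiratory chain genes, with a median of -0.21. Without the 3 libraries, 55 of the 83 cytosolic genes were called lower and 0 higher, with a median of -0.28. Of the 80 respiratory chain genes, 17 were then called lower and 3 higher, with a median of -0.0894. Over all genes, 8.62% were called lower and 8.69% higher in that fit.

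Without the 3 libraries Mrps18c gave -0.32 ± 0.09 (adjusted p = 0.0173), and 3 genes rose with miR-21 in swimming mice: Mrpl16 at 0.27 ± 0.06 (adjusted p = 0.00523), Mrps30 at 0.23 ± 0.05 (0.00567) and Mrpl39 at 0.24 ± 0.07 (0.0158). All 3 encode large subunit proteins, as do most of the 77 genes (48 are Mrpl genes by name). Mrpl16 stood at 69.6, 43.2, 70.9, 69.5 and 67.7 CPM in the 5 miR-21 swimming libraries and at 54.6 to 65.8 CPM in the empty-vector swimming group. Mrps30 stood at 54.3, 32.4, 56.3, 53.4 and 51.7 CPM against 43.2 to 50.8 CPM. For both genes 4 libraries lay above the empty-vector range and replicate 2 below it. Mrpl39 stood at 91.9, 53.1, 91.8, 80.3 and 100.3 CPM against 71.1 to 83.5 CPM, with 3 libraries above that range, 1 within it and replicate 2 below it. With all 23 libraries the values were 0.15 ± 0.11 (adjusted p = 0.455) for Mrpl16, 0.10 ± 0.10 (0.617) for Mrps30 and 0.11 ± 0.12 (0.657) for Mrpl39. Over all genes, 8.69% were called higher and 8.62% lower without the 3 libraries, so 3 higher (3.9%) and 1 lower (1.3%) of 77 are low shares. Leaving out miR-21 swimming replicate 2 alone gave Mrpl16 and Mrps30 as higher, Mrps18c as lower and a median of -0.0096, where 7.07% of all genes were called higher and 6.76% lower. Mrpl16 and Mrps30, and Mrpl54, Mrpl9 and Mrpl30 in the first comparison, were named after their values were seen.

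**Figure D4:**
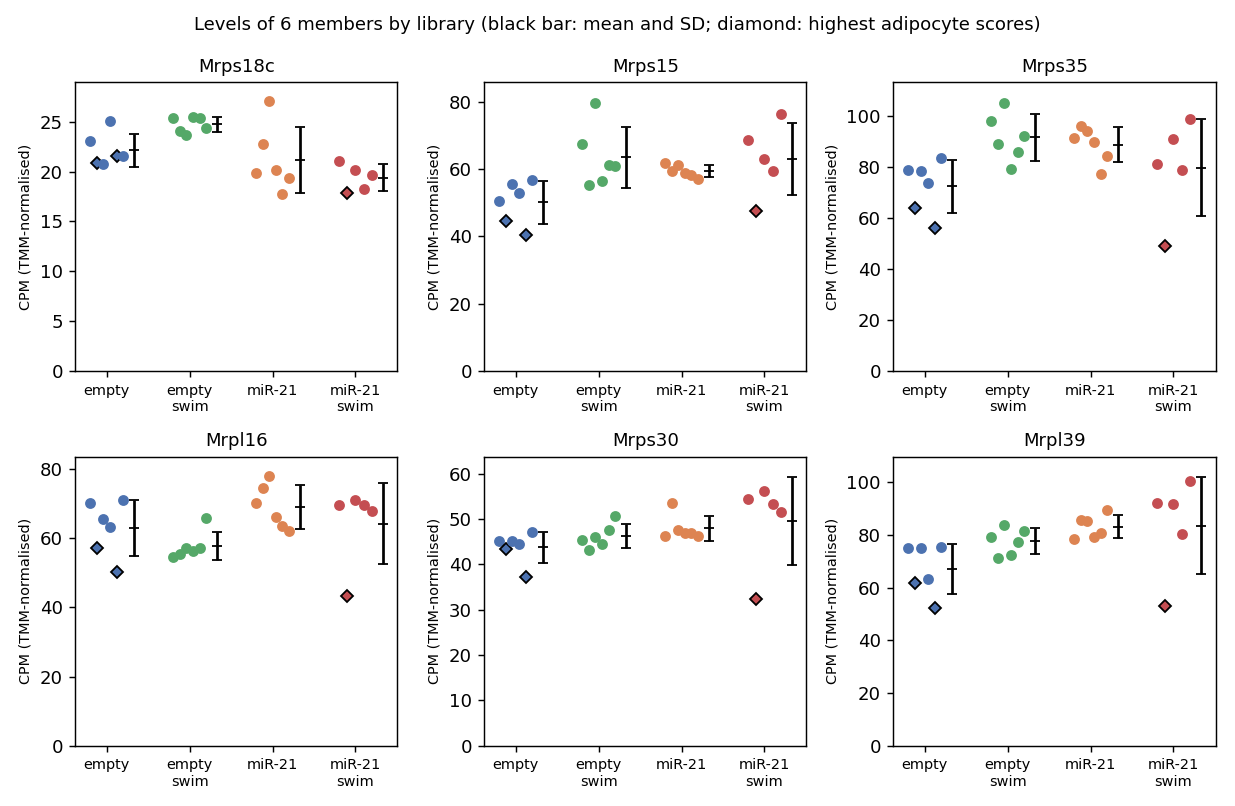
CPM of 6 genes in each library, with the mean and SD of each group as a black bar. Diamonds mark the 3 libraries with the highest adipocyte scores. All 5 miR-21 swimming libraries are below all 6 empty-vector swimming libraries for Mrps18c, while for Mrpl16 and Mrps30 4 are above and replicate 2 is below.

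The fourth comparison asked what training did in hearts with the miR-21 vector. None of the 77 genes passed (0 higher, 0 lower), and few genes did at all, 0.0518% higher and 0.119% lower. Of the log2 fold changes, 74 of 77 lay below 0, with a median of -0.19 against 0.03 over all genes. Over 33 alternative fits this median ran from -0.36 to -0.09. At an unadjusted p under 0.05, 33 were lower (42.9%) and 0 higher, against 9.24% and 9.51% of all genes. Mrpl47, at the exit tunnel, had the smallest p, with -0.40 ± 0.11 (adjusted p = 0.0963). It stood at 17.9, 12.2, 19.4, 17.4 and 21.5 CPM in the swimming libraries, against a lowest, median and highest value of 19.3, 23.6 and 26.7 CPM in the miR-21 controls, so that 2 swimming libraries lay within the control range. Mrps12, in the decoding centre, gave -0.29 ± 0.09 (0.112), Mrpl34 -0.38 ± 0.12 (0.118) and Mrpl36 -0.29 ± 0.10 (0.137), the last 2 of the large subunit. Exons of Mrpl47 and Mrpl36 overlap those of the respiratory chain genes Ndufb5 and Ndufs6 on the other strand, so their counts are uncertain.

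The size of this shift rested partly on 1 library. Without miR-21 swimming replicate 2 the median was -0.09, and 14 genes were lower at an unadjusted p under 0.05. Without miR-21 control replicate 3 these values were -0.15 and 22 genes. Without the 3 libraries the median was also -0.09, 25 of the 77 were lower at that p (32.5%), and 0 were called in either direction, against 0.418% of all genes higher and 0.583% lower. Respiratory chain genes gave a median of -0.26 with all libraries (0 of 80 called) and -0.14 without the 3 (8 called lower). DESeq2 called 1 gene lower, Mrpl47, against 1.86% of all genes. Every miR-21 control is in the lower series of titles, as are replicates 1 and 2 of the miR-21 swimming group, while replicates 3 to 5 are in the higher one. With a term for the series, 18 of the 77 were called lower and 0 higher, against 3.39% and 4.58% of all genes. That fit in effect sets the miR-21 controls against swimming replicates 1 and 2 only. Replicate 2 held the lowest of all values for 57 of the 77 genes, so these 18 calls lean on it.

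The effect of swimming was then compared between the vectors in an interaction term over all 4 groups. None of the 77 genes passed, with 0 in either direction against 0.326% of all genes higher and 0.215% lower. Of the 77 estimates, 76 were below 0, with a median of -0.25 against 0.0079 over all genes. Over 32 alternative fits this median ran from -0.29 to 0.06, and 31 of them kept its sign. At an unadjusted p under 0.05, 27 were lower (35.1%) and 0 higher, against 8.73% and 12.7%. The smallest p-values were those of Mrps24 at -0.44 ± 0.14 (adjusted p = 0.0918), Mrpl1, a protein of the L1 stalk near the exit site for tRNA, at -0.50 ± 0.17 (0.107), Mrpl51 at -0.42 ± 0.15 (0.128) and Mrps36 at -0.49 ± 0.18 (0.128). The 27 lower genes became 12 without miR-21 swimming replicate 2, 13 without miR-21 control replicate 3, and 13 and 11 without empty-vector control replicates 2 and 5. Without the 3 libraries the median was -0.05, with 25 above 0, 5 lower at an unadjusted p under 0.05 and 0 called, against 0.179% of all genes called higher and 0.217% lower. For respiratory chain genes the interaction median was -0.44 and then -0.19 without the 3 libraries, with 0 of 80 called in both fits. Each pair of these comparisons that shares a group shares its libraries, and the interaction uses all of them, so their values are set side by side only.

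**Figure D5:**
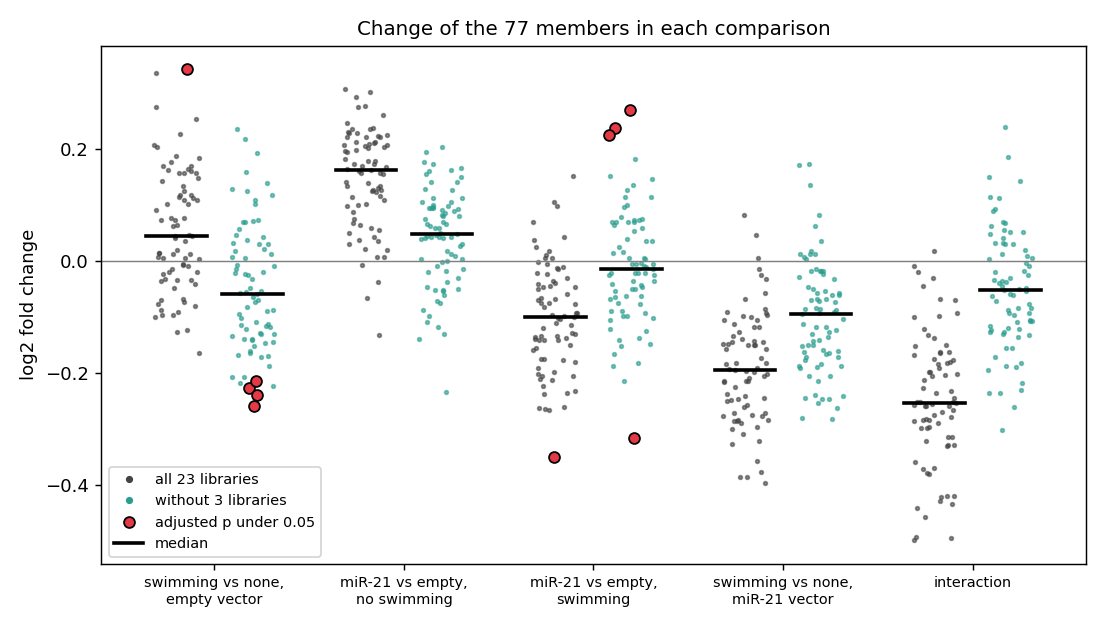
Log2 fold change of the 77 genes in each comparison (interaction: difference of 2 log2 fold changes), with all 23 libraries in grey and without the 3 libraries in green. Bars are medians and red points genes with an adjusted p under 0.05. The median of the fourth comparison moved from -0.19 to -0.09 and that of the interaction from -0.25 to -0.05.

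The 4 genes listed as linked to cardiomyopathy did not pass in any comparison in the main fit. Of 33 alternatives for swimming with the empty vector, Mrpl3 passed in 2 and Mrpl44 in 1, both lower. Mrpl3 also passed, as higher, in 1 of 33 for miR-21 with swimming, and Mrps14, as lower, in 1 of 33 for swimming with miR-21. Mrpl3, at the peptidyl transferase centre, was at 80.9 ± 11.8, 75.9 ± 4.86, 90.5 ± 7.72 and 79.8 ± 14.6 CPM (SD; empty-vector controls, empty-vector swimming, miR-21 controls, miR-21 swimming; n = 6, 6, 6 and 5). Mrpl44, whose product resembles a ribonuclease III, was at 54.98 ± 7.66, 55.2 ± 3.16, 63.5 ± 8.36 and 55.1 ± 10.1 CPM in the same order, and its exons overlap those of Wdfy1. Mrps14 was at 41.2 ± 4.45, 41.6 ± 2.58, 41.8 ± 4.27 and 34.6 ± 4.50 CPM. Mrps22 was at 21.2 ± 1.65, 22.3 ± 1.53, 23.9 ± 3.07 and 20.3 ± 3.58 CPM. In the main fit, Mrps14 in the miR-21 swimming group, against the empty-vector swimming group, had the lowest adjusted p of the 4 genes, 0.0915. Mrpl12, which has also been linked to mitochondrial transcription, was at 201 ± 30.9, 204 ± 10.1, 234 ± 22.5 and 183 ± 39.0 CPM, with adjusted p from 0.141 to 0.939 over the 5 comparisons in the main fit.

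Medians are given by subunit and by origin of the protein. For genes named Mrpl and Mrps the medians were 0.03 and 0.08 for swimming with the empty vector, 0.16 and 0.17 for miR-21 without swimming, -0.10 and -0.10 for miR-21 with swimming, -0.20 and -0.16 for swimming with miR-21, and -0.25 and -0.26 for the interaction. For bacterial-type and mitochondrial-type genes they were 0.03 and 0.06, 0.15 and 0.20, -0.12 and -0.07, -0.20 and -0.19, and -0.26 and -0.22 in the same order. Leaving out the 3 libraries, the Mrpl and Mrps medians were -0.0834 and -0.0226, 0.0456 and 0.0589, -0.0175 and 0.0063, -0.11 and -0.0864, and -0.0503 and -0.0519. The differences between these classes were not tested.

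Genes that build and run the mitochondrial ribosome were mostly uncalled too. Of 27 tested assembly and rRNA maturation factors, 2 rose with swimming under the empty vector and 0 fell. Over all genes, 4.18% were called higher and 3.28% lower there. The 2 were Rbfa, a small subunit maturation factor, at 0.29 ± 0.08 (adjusted p = 0.0233) and Rpusd4, a pseudouridine synthase, at 0.31 ± 0.09 (0.0379). Rbfa stood at 32.5, 38.1 and 44.2 CPM (lowest, median and highest) in the empty-vector controls and 41.0, 46.3 and 54.8 CPM with swimming, an overlap at the ends of the ranges. In the miR-21 groups, where 0.119% of all genes were called lower and 0.0518% higher, 1 assembly factor fell with swimming and 0 rose. This was the rRNA methyltransferase Mrm3, listed under its older symbol Rnmtl1, at -0.61 ± 0.13 (adjusted p = 0.0476). It stood at 26.7, 31.9 and 39.0 CPM without swimming and ran from 13.7 to 24.1 CPM with it, with no overlap. Without the 3 libraries, swimming with the empty vector gave 1 assembly factor higher and 1 lower, against 6.06% and 5.55% of all genes. Swimming with miR-21 gave 0 higher and 1 lower, against 0.418% and 0.583%. In swimming mice, miR-21 gave 1 higher and 0 lower, against 8.69% and 8.62%.

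With miR-21 in swimming mice, 1.87% of all genes were called higher and 2.71% lower. Of 17 tested translation factors and activators, 1 fell and 0 rose there: Slirp, which stabilises mitochondrial mRNAs, at -0.48 ± 0.13 (adjusted p = 0.0348). Its range was 27.3 to 45.4 CPM with the empty vector and 22.9 to 29.4 CPM with miR-21, which overlap. Of 20 genes of mitochondrial transcription and RNA processing, 1 rose and 0 fell: Prorp, the catalytic subunit of mitochondrial RNase P, listed as 1110008L16Rik, at 0.35 ± 0.09 (adjusted p = 0.0207). It ran from 7.20 to 8.59 CPM with the empty vector and from 8.90 to 11.3 CPM with miR-21, with no overlap. No gene among 17 mitochondrial tRNA synthetases, 11 regulators of these genes and 7 mitoribosome proteins outside the name rule was called in any of the 5 comparisons in the main fit. When the 3 libraries were left out, 5 of the 17 translation factors, 8 of the 20 transcription genes and 2 of the 17 synthetases were called higher with miR-21 in swimming mice, and 1, 0 and 0 lower, where 8.69% of all genes were called higher and 8.62% lower, and 3 of the 77 were higher and 1 lower. The medians there were 0.10, 0.13 and 0.14 for these lists and -0.01 for the 77 genes. In the same comparison 2 regulators were higher and 0 lower, and 1 of the other mitoribosome proteins was higher and 1 lower. For miR-21 without swimming, that fit called 2 synthetases, 1 regulator, 1 of the other mitoribosome proteins, 1 translation factor and 3 transcription genes higher and 0 of these lists lower, against 2.89% and 2.87% of all genes. For swimming with the empty vector it called 1 regulator and 1 transcription gene lower, against 5.55% of all genes.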

How the data were processed

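RNA was sequenced from libraries made with a stranded mRNA kit, per the labels' protocols. The build was GRCm39, per the submitters' processing notes, and which aligner and counter the authors ran is not given in the sources used here. The authors deposited raw counts by gene, and FPKM values of the same libraries. All 23 count columns matched a sample title. The labels also list a replicate 6 of the miR-21 swimming group, which has no count column and could not be analysed. A further 46 per-sample columns were not used. From the counts, genes were filtered with filterByExpr (13501 tested), scaled by TMM and fitted over all 4 groups with edgeR's robust quasi-likelihood test, with Benjamini-Hochberg adjustment over all genes tested and a threshold of 0.05. log2 CPM used a prior count of 2. FPKM was used only for levels between genes. Named genes are those with the smallest p in each comparison (4 where fewer are called), Mrpl12, the S18 paralogs, cardiomyopathy-linked genes, the extremes of level, the 3 least like the rest, and up to 3 called genes of each other list. Mrpl9, Mrpl16, Mrpl30, Mrpl54 and Mrps30 are outside this rule and were named from their calls in alternative fits. The genes, lists, tests and alternatives were chosen with earlier results of these data known. Alternatives were RLE and upper-quartile scaling, 2 other filters, DESeq2, limma voom with quality weights, only the groups compared, a title-series term, adipocyte and mesothelial scores as covariates, and leaving out each of 23 libraries or 3 together. The scripts were tested on simulated data. Exon overlaps came from GENCODE M21. The software was DESeq2 1.42.0, limma 3.58.1 and edgeR 4.0.16 under R 4.3.3, with matplotlib 3.10.9, pandas 2.3.3 and numpy 2.4.6 under Python 3.11.15.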

Additional observations from a re-analysis of the deposited data

Results flagged for a closer look

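Of 128 groups of values (31 named genes and the mean of the 77 genes in each of the 4 groups), 11 held 1 library whose distance to the nearest other was large against the range of its group. Chance flags about 1 in 20 such groups, and values of different genes from 1 library are not independent. In 8 of the 11 that library was replicate 2 of the miR-21 swimming group, below the other 4: the mean of the 77 genes was -0.50 there (next -0.03), and the values were 19.2 CPM for Mrpl1, 155.8 for Mrpl42, 37.2 for Mrpl44, 31.9 for Mrpl49, 26.9 for Mrps14, 21.5 for Mrps18b and 41.7 for Mrps24. In 2 it was replicate 3 of the miR-21 controls, above the others, at 39.4 CPM for Mrpl36 and 42.7 CPM for Mrpl52. The last was Mrps36 in replicate 6 of the empty-vector swimming group, at 77.5 CPM against 67.9 for the next library.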

How the results depend on the processing

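Of the counts of called genes, 301 values under an alternative stayed within 1.5 times and 27 did not. The main counts were 0 or 1, so only an unchanged count met this rule. A count that stayed at 0 does not show how far the estimates moved. For swimming with the empty vector, the higher count of 1 became 0 with no filter, the title-series term, without the 3 libraries and with the adipocyte and mesothelial covariates, and ran from 0 to 6 over single libraries left out; the lower count of 0 became 4 without the 3 libraries and 24 with the covariates, where 5.55% and 8.41% of all genes were called lower. For miR-21 without swimming, the higher count was 1 with voom (4.44% of all genes), 4 with only the groups compared (5.73%) and 0 to 16 over single libraries. For miR-21 with swimming, it was 3 with voom (9.45%), 3 without the 3 libraries (8.69%), 4 with the covariates (7.8%) and 0 to 2 over single libraries. For swimming with miR-21, the lower count was 1 with DESeq2 (1.86%), 18 with the title-series term (3.39%) and 1 with the covariates (0.556%), and for the interaction 1 with DESeq2 (1.82%). Of single genes, 14 values changed sign; estimates within 1 SE of 0 that never passed were taken to have no direction. For swimming with the empty vector these were Mrps35 (-0.13) and Mrpl49 (-0.0772) with the title-series term, and Mrps35 (-0.0228), Mrpl23 (-0.0118), Mrpl49 (-0.0253), Mrpl12 (-0.30, adjusted p = 0.0263) and Mrpl44 (-0.33, adjusted p = 0.00529) with the covariates. With the covariates they were also Mrpl12 (-0.0145), Mrpl3 (-0.10) and Mrpl44 (-0.0632) for miR-21 without swimming, Mrpl12 (0.0093) with swimming, and Mrpl12 (0.0238) and Mrpl44 (0.22) for the interaction, where Mrpl44 was 0.0314 without the 3 libraries. The cause was not tested. No paired analysis was possible because replicate numbers follow accession order and pair no libraries. RLE and upper-quartile scaling moved the median of all genes by at most 0.0245. The median SE over the 77 genes was 0.10 to 0.11 on the log2 scale in the pairwise comparisons and 0.15 for the interaction.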
